A study of Homo sapiens with 2 samples.

Results

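In a map of nucleosome positions from ARPE-19 cells, 197781 isolated pairs of neighbouring positions lay only 10 to 60 bp apart, closer than DNA of 2 nucleosomes could lie side by side. ARPE-19 cells are a human line that derives from the pigmented epithelium behind the retina, and they were in interphase under normal culture, with no treated or control arm. Chromatin was digested with micrococcal nuclease (MNase), which cuts the DNA between nucleosomes, and the protected fragments were sequenced. The labels name 2 samples, batch 1 and batch 2, but the authors deposited 1 list of positions that names neither of them, and its read depth is unknown. The values below therefore describe 1 map, with no replicate and no test between conditions. A mean ± SD over the 22 autosomes says how uniform a value was along the genome, and chromosomes are not biological replicates.

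The pairs were chosen by the measured positions themselves. The list held 2634347 rows, each 1 bp wide, of which 4 repeated another row, and 2558490 distinct positions lay on chromosomes 1-22. A pair consisted of 2 neighbouring positions 10 to 60 bp apart with no other position within 100 bp of either member. The 197781 pairs took up 395562 positions, or 15.5% of all. A further 2000938 positions (78.2%) had no other position within 100 bp and are called single positions here. They are the reference for every comparison, in which a pair counts once, at its midpoint. The remaining positions lay in isolated pairs 1 to 9 bp apart (1156 positions), in isolated pairs 61 to 100 bp apart (84726 positions), or in groups of 3 or more (76108 positions). Of the 233321 neighbours 10 to 60 bp apart, 84.8% were isolated and thus members. At the edges of the choice, 192 isolated pairs lay 9 bp apart and 302 lay 10 bp apart, while 1732 lay 60 bp and 1700 lay 61 bp apart. A next position 91 to 100 bp away kept 1997 pairs out, and 2288 pairs with a next position up to 10 bp beyond that limit were kept.

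A nucleosome core wraps about 147 bp of DNA around 8 histones, so a full core at each member of a pair would use the same bases. A bulk map sums many cells, and in such maps overlapping positions can come from different cells or alleles, from nucleosomes that move along the DNA, or from particles that hold less DNA. These data do not separate those cases. Wrapped DNA touches the histone surface once per turn of the helix, about every 10 bp, which is why distances between alternative positions are often examined in steps of that size. DNA rich in G and C tends to be favoured by nucleosomes in MNase maps, and runs of A and T tend to be disfavoured. CpG islands, which often hold promoters, and sites of the insulator protein CTCF are known for positioned or absent nucleosomes. None of these statements is a result of this map.

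The following stretches of the hg38 reference are shown because they stand for the kinds of place described below, namely coding exons of genes on the lists examined and the first exon of 2 genes. Each runs 5′ to 3′ on the plus strand from 73 bp before the left member to 73 bp after the right member. Capitals mark the bases from the left to the right member.
TET1: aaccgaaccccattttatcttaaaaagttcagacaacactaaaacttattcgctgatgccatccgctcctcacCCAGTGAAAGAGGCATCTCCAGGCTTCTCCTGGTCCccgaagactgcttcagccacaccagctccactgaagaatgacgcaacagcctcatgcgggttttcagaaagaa
CDH2: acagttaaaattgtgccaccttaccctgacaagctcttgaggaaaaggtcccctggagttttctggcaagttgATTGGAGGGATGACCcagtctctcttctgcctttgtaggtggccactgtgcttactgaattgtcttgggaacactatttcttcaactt
TYRP1: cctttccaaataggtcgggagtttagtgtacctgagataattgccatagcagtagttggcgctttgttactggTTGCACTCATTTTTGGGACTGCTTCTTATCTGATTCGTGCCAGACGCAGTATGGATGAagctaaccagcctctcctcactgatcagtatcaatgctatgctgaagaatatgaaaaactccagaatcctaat
SUMF1: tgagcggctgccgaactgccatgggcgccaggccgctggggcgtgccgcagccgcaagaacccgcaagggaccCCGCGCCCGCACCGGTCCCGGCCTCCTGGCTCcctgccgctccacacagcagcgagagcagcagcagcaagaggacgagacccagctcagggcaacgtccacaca
SNAPC2: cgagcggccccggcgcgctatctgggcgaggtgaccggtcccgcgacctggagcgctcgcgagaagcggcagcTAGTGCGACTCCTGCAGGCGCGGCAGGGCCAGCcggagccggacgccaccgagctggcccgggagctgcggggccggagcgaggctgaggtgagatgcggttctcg

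TET1, an enzyme that oxidises 5-methylcytosine, held a pair 35 bp apart in its coding exon 12 (the stretch shown is chr10:68690848-68691029, gene on the plus strand). CDH2, the adhesion protein N-cadherin, held a pair only 14 bp apart in coding exon 4 (stretch shown chr18:28011822-28011982, gene on the minus strand, with 24 of its bases in an intron). TYRP1, a protein of melanin synthesis, held a pair 57 bp apart in coding exon 8 (stretch shown chr9:12708964-12709167, gene on the plus strand, with 13 of its bases in an intron). SUMF1, which activates sulfatases, and SNAPC2, a subunit of the complex that starts small nuclear RNA transcription, held pairs 31 and 32 bp apart in their coding exon 1 (stretches shown chr3:4467043-4467220, gene on the minus strand, and chr19:7920388-7920566, gene on the plus strand, with 17 bases of the latter in an intron). Between the members, GC content was 84.4% in SUMF1 and 72.7% in SNAPC2, against 58.3% in TET1, 53.3% in CDH2 and 44.8% in TYRP1. The 5 stretches thus span nearly the whole range of distances and a wide range of base content.

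The distances formed 1 broad peak, without separate maxima at each multiple of 10 bp. The most frequent distance was 31 bp, with 9313 pairs, and the median was 34 bp with quartiles of 28 and 41 bp. There were 302 pairs at 10 bp, 2369 at 20 bp, 8974 at 30 bp, 4972 at 40 bp, 2496 at 50 bp and 1732 at 60 bp. Midway between those distances there were 968 pairs at 15 bp, 5599 at 25 bp, 7446 at 35 bp, 3346 at 45 bp and 2028 at 55 bp. Distances of 25 to 39 bp made up 56.4% of the pairs, distances under 20 bp 4.85% and distances of 50 to 60 bp 11.5%. The peak stood at nearly the same place on every autosome, at 30.9 bp ± 0.684 (SD over 22 chromosomes), never outside 30 to 32 bp.

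A 10-bp rhythm was sought as a wave on a smooth trend fitted to all isolated distances of 10 to 100 bp. Its amplitude was 1.27% of the trend ± 0.295 (counting error). It exceeded its counting error, but so did waves of neighbouring lengths, with 1.07% at 7 bp, 1.05% at 8 bp, 1.32% at 9 bp, 1.14% at 11 bp, 1.21% at 12 bp and 1.35% at 13 bp, so a rhythm of 10 bp was not separated from them. Shorter waves were smaller, with 0.0694% at 5 bp and 0.591% at 6 bp. Longer waves were larger, with 1.70% ± 0.371 (counting error) at 14 bp, 2.02% ± 0.482 at 16 bp and 3.70% ± 0.969 at 18 bp. The amplitude rose further up to 20 bp, the longest wave fitted, and its counting error rose too, to 2.36 at 20 bp. Amplitudes of the long waves are therefore not directly comparable with that at 10 bp. The amplitudes had no maximum at 10 bp among the shorter waves either, since that at 9 bp was no smaller. Pairs within 1 bp of 20, 30, 40 or 50 bp numbered 56752, where the trend gave 56039, and pairs within 1 bp of 25, 35, 45 or 55 bp numbered 55323, where it gave 55967. The excess was uneven over the steps. There were 9313 pairs at 31 bp, where the trend gave 8962, but 4972 at 40 bp against 4976. At 50 bp there were 2496 against 2525, and at 20 bp 2369 against 2354. The deficit was uneven too, with 6139 pairs at 26 bp against 6468, but 3676 at 44 bp against 3595. The ends of the range were set by the rule, and the position of the peak inside it is a description of the pairs. The settings with which positions were called, such as any smoothing or least distance between calls, are not given in the sources used here, so their part in the 31-bp peak and in the low counts under 20 bp was not tested.

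**Figure D1:**
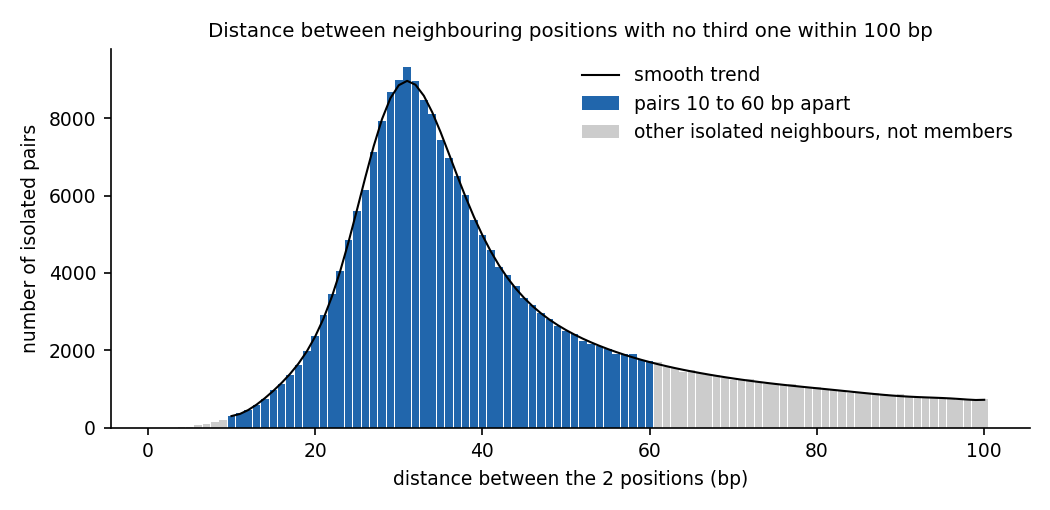
Number of isolated neighbouring positions (y axis) at each distance in bp (x axis). Blue bars are the pairs 10 to 60 bp apart, grey bars are isolated neighbours outside those bounds, and the line is the fitted trend. The bars rise to 9313 pairs at 31 bp and fall to 1732 at 60 bp without a maximum at each multiple of 10 bp.

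Pairs lay in DNA richer in G and C than single positions. The 150 bp around pair midpoints were 50.6% ± 1.59 G or C (SD over 22 chromosomes), and those around single positions 48.7% ± 1.89. Pairs exceeded single positions by 1.86 points ± 0.371 (SD), on 22 of 22 chromosomes, with extremes of 0.977 and 2.31 points. There were 2.27 pairs per 100 single positions where GC was 26 to 28%, 6.85 at 40 to 42% and 10.97 at 48 to 50%. The ratio was highest at 60 to 62% GC, with 14.2 pairs per 100 single positions, and fell to 6.85 at 72 to 74%. The ratio over the whole map was 9.88. Pairs thus became more frequent from AT-rich to moderately GC-rich DNA and rarer again in the most GC-rich DNA.

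Crowding of the map moved with the same ratio. Where no other position lay within 5000 bp either side, there were 5.53 pairs per 100 single positions, and where 29 or more did, there were 18.7. The rise held at each step in between, for example 8.93 at 8 to 10 other positions and 12.3 at 18 to 22. The rise with GC was present within classes of equal crowding. With 8 to 10 other positions, the ratio was 4.55 at 30 to 40% GC, 8.97 at 40 to 50%, 10.7 at 50 to 60% and 10.7 at 60 to 70%. With 14 to 17 other positions, the same 4 GC classes gave 4.86, 9.97, 12.7 and 12.5. Compared within crowding classes, pairs exceeded single positions by 1.47 GC points.

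Chromosomes differed in the same way. The share of positions in pairs was 15.2% ± 1.42 (SD, n = 22 chromosomes), lowest at 13.1% on chromosome 19 and highest at 19.6% on chromosome 15, followed by 17.8% on chromosome 9. Chromosomes 9 and 15 also had the most positions per kb, 1.26 and 1.23. The same positions enter both measures, and closer positions in a denser map raise the share by construction. Across the 22 chromosomes, which come from 1 list, the share and the positions per kb had a Pearson r of 0.90 and a Spearman rho of 0.85. Without chromosomes 9 and 15 both were 0.80.

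The base content of the pairs also varied with the distance between the members. At the centre, GC content was 50.7% around single positions and rose from 51.4% for pairs 10 to 19 bp apart, through 52.0% at 20 to 29 bp and 53.5% at 30 to 39 bp, to 54.5% both at 40 to 49 bp and at 50 to 60 bp. On each side GC fell to a lowest point, which lay 94 bp from single positions, outside the DNA of a core. That lowest point lay 106, 108, 111, 117 and 121 bp from the midpoints in the 5 distance classes, from the closest pairs to the widest. The half-width of the GC-rich core did not grow with the distance between the members. Taken where GC was midway between centre and lowest point, it was 62 bp for single positions and 60, 60, 59, 57 and 56 bp in the 5 classes.

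The half-widths of these profiles were close to those of 2 single positions laid at the members. When the profile of single positions was placed at both members of each pair and averaged, the half-widths were 61, 60, 58, 57 and 55 bp, within 1 bp of the values observed. The half-width thus fell for 2 offset cores as well, so it cannot show whether the core widened. The lowest points of that construction lay at 96, 103, 108, 113 and 120 bp, and those of the pairs lay 1 to 10 bp further out. Its GC content at the centre was 50.6% for the closest and 50.2% for the widest class, 0.791 and 4.33 points below the pairs. This construction was chosen after the profiles were seen, and it was compared with the pairs by half-width, lowest point and centre only.

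Dinucleotides made only of A and T were rarer at the pairs. They made up 17.9% ± 1.57 (SD, n = 22 chromosomes) of dinucleotides within 5 bp of pair midpoints, against 20.7% ± 1.91 at single positions. The difference was -2.74 points ± 0.456 (SD), with pairs lower on 22 of 22 chromosomes. Dinucleotides made only of G and C made up 24.98% at midpoints and 22.5% at single positions over all chromosomes. The left and the right member had alike values over all chromosomes together, 18.5% and 18.6% for the A and T kind and 24.4% each for the G and C kind. Counted in that way, the A and T kind made up 18.3% at midpoints and 21.1% at single positions. The 10-bp rhythm of these dinucleotides was small in both sets. For the A and T kind its amplitude was 0.0397 points around midpoints, 0.0510 around left members, 0.0523 around right members and 0.0350 around single positions. For pairs within 1 bp of 20, 30, 40 or 50 bp the amplitude around left members was 0.108 points, and for pairs within 1 bp of 25, 35, 45 or 55 bp it was 0.0246 points. The values per chromosome around left members, 0.216 ± 0.139 and 0.147 ± 0.0851 (SD, n = 22), overlapped. The order was the opposite around right members, 0.0717 against 0.0966 points, and around midpoints, 0.0469 against 0.0911 points. These amplitudes cannot fall below 0, and scatter in smaller sets raises them, so sets of different size cannot be compared directly. Their counting error was not computed.

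**Figure D2:**
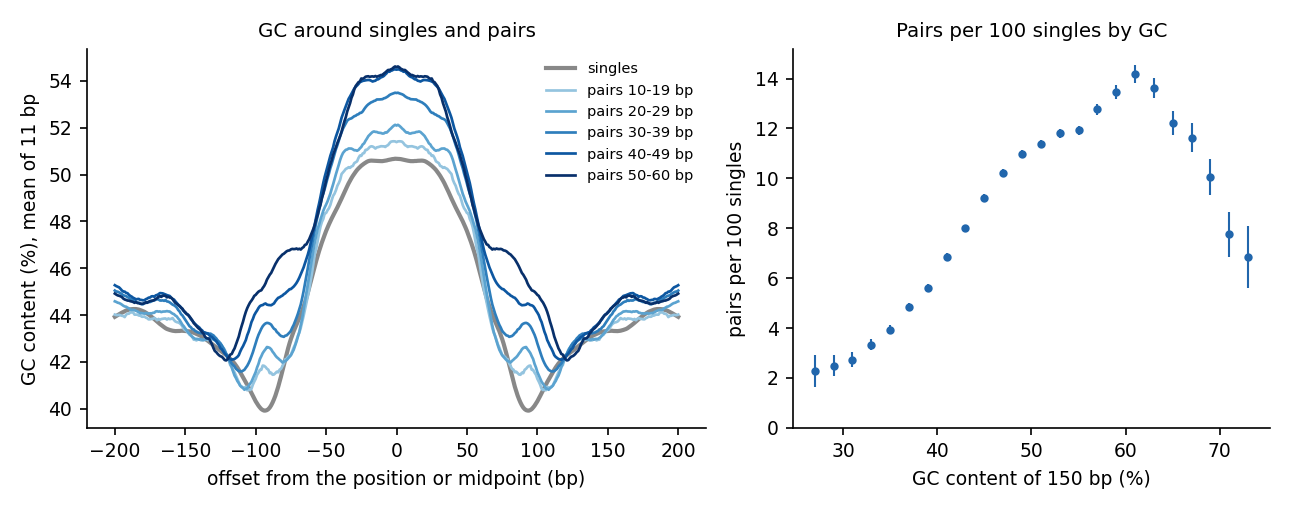
Left, GC content in percent (y axis, running mean of 11 bp) by offset in bp from a single position (grey) or from a pair midpoint (blue, darker for wider pairs). Right, pairs per 100 single positions by GC content of the surrounding 150 bp, with 95% counting intervals. The centre rises from 50.7% for single positions to 54.5% for the widest pairs, and the ratio on the right is highest, 14.2, at 60 to 62% GC.

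The next position outside a pair was spaced from either member. From single positions, the most frequent distance to the next position was 183 bp (183 ± 1.32 over 22 chromosomes). From the near member of a pair it was 175 bp (177 ± 2.60), and between 174 and 182 bp in each of 7 classes of distance between the members. From the far member the most frequent distance shifted with the class, from 198 bp in the closest to 236 bp in the widest pairs. Besides this main maximum, wide pairs had a shoulder at shorter distances. Among pairs 50 to 60 bp apart, 9.46% of gaps placed the next position 168 to 198 bp from the near member, and 8.14% placed it 168 to 198 bp from the far member. Single positions had 9.65% of their gaps at 168 to 198 bp, but only 1.76% at the short gaps that the far-member window takes up.

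The same held for closer pairs. The far-member window held 8.27% of gaps at 40 to 49 bp, where single positions had 2.28% at the same gaps, and 8.30% at 30 to 39 bp, where single positions had 3.25%. Over 22 chromosomes the far-member share of the 50 to 60 bp class was 8.07% ± 1.86 (SD). In 946 pairs 50 to 60 bp apart, the next positions on both sides fell in one of these windows. Both neighbours were spaced from the same member in 530 of them (56.03%), from the member nearest to each in 219 (23.2%) and from the member farthest from each in 197 (20.8%). The left and the right member served in 258 and 272 of the 530. At 40 to 49 bp the corresponding shares of 1653 pairs were 55.2%, 26.7% and 18.03%, and at 30 to 39 bp those of 3595 pairs were 52.4%, 29.01% and 18.6%. If each side took its near or far window in the shares of single sides without regard to the other, the same member would serve both in 49.7%, 49.5% and 49.5% of pairs, from the widest class to the closest. The windows, 15 bp either side of 183 bp, were chosen after the distribution was seen.

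**Figure D3:**
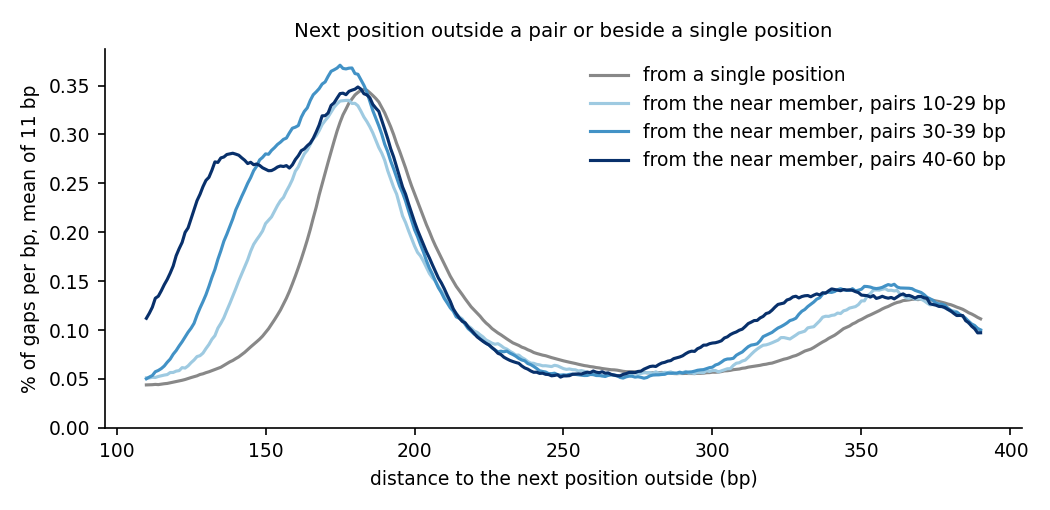
Percent of gaps per bp (y axis, running mean of 11 bp) by distance in bp from a single position (grey) or from the near member of a pair (blue, darker for wider pairs) to the next position outside. The main maximum lies at 183 bp for single positions and 175 bp for all pairs, and wider pairs have a further shoulder at shorter distances.

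Pairs were rarer in CpG islands than single positions were. The series concerns the border of CpG islands, and 17238 islands, of 942.5 bp in the median, were found on chromosomes 1-22 of hg38. Island interiors held 314 pairs (0.159% of all pairs) and 5290 single positions (0.264%), a log2 ratio of -0.74 (95% counting interval -0.90 to -0.57). It lay below 0 on 22 of 22 chromosomes, with a mean of -0.73 ± 0.37 (SD). Island borders, within 200 bp of an island's edge, held 586 pairs (0.296%) and 7890 single positions (0.394%). Their log2 ratio was -0.41 (-0.53 to -0.29), and it was below 0 on 18 of 22 chromosomes. Shores, up to 2000 bp outside, had a log2 ratio of 0.03, and the open sea beyond them held 97.2% of the pairs and 97.0% of the single positions. Within classes of equal GC content and crowding the ratio was -0.45 in interiors and -0.40 at borders.

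Near start sites, pairs were rarer than single positions where the start site lay in an island. Over 19111 protein-coding start sites of GENCODE 44, 358 pairs lay within 250 bp downstream and 258 within 250 bp upstream. Their log2 ratios to single positions had means of -0.19 ± 0.43 and -0.04 ± 0.42 (SD over 22 chromosomes), within the spread of the chromosomes, and were -0.21 and -0.16 over all chromosomes together. Downstream of start sites in islands there were 125 pairs and 1940 single positions, a log2 ratio of -0.62 (-0.88 to -0.36), below 0 on 19 of 22 chromosomes. Downstream of other start sites there were 233 pairs and 2236 single positions, a log2 ratio of 0.08 (-0.12 to 0.27). Within classes of GC content and crowding these became -0.15 and 0.00. Pairs and single positions had their maximum in the same 25-bp bin, 125 to 150 bp downstream, with 85 pairs and 1129 single positions. In the bins at 75, 100, 125 and 150 bp, pairs per 100 single positions were 9.23, 7.72, 7.53 and 7.94, against 9.88 over the whole map. Bins on either side held few pairs and varied both ways. The ratio was 12.3 at 50 bp (39 pairs) and 13.0 at 175 bp (29 pairs). It was 6.03 at 25 bp (12 pairs) and 8.19 at 200 bp (14 pairs). Just upstream of the start site it was 18.3 in the bin from -75 bp (28 pairs), 10.3 from -50 bp (15 pairs) and 13.9 from -25 bp (23 pairs). Further upstream it was 7.21 from -100 bp and 6.91 from -125 bp (15 pairs each).

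Downstream of start sites, 356 genes held such a pair. The 10 whose midpoint lay nearest the centre of the modal bin, all at 136 to 139 bp, were UBE4B, ST7L, HINFP, NAA25, CFDP1, SNAPC2, ZNF512, SUMF1, LAMB2 and ROPN1L. Their members lay 24 bp (ROPN1L) to 48 bp (CFDP1) apart. The start site lay in an island in UBE4B, a ubiquitin ligase, in HINFP, a regulator of histone gene transcription, and in ST7L, NAA25, CFDP1 and ROPN1L. It lay outside in LAMB2, a laminin subunit of basement membranes, and in SNAPC2, ZNF512 and SUMF1. From 73 bp before the left to 73 bp after the right member, GC content ranged from 56.4% in ZNF512 to 79.9% in NAA25. Islands here are segments found by a score, and DNA beside a start site counted outside them can be GC-rich. It was 75.4% in SNAPC2, 71.9% in SUMF1 and 61.3% in LAMB2.

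Exons and introns held pairs in nearly the same proportion as single positions. Coding exons held 2926 pairs (1.48%) and 30202 single positions (1.51%), a log2 ratio of -0.03 with a mean of -0.02 ± 0.19 (SD over 22 chromosomes). Introns held 83122 pairs (42.0%) against 42.5% of single positions, other exons 3401 pairs (1.72%) against 1.67%, and 108332 pairs (54.8%) lay outside protein-coding genes, against 54.3%. Around 52094 wholly coding exons of 120 to 180 bp, both sets were most frequent in the 25 bp just upstream of the exon's middle, with 182 pairs and 2084 single positions. The profile was not symmetric. At 50 to 75 bp upstream of the middle there were 76 pairs and 836 single positions, or 9.09 pairs per 100 single positions. At 50 to 75 bp downstream there were 118 and 1101, or 10.7 per 100.

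Beside CTCF motifs the pairs were uneven between the sides over all chromosomes together. CTCF binds a long asymmetric motif and is known to be flanked by regularly spaced nucleosomes, and its binding was not measured here. Within 50 bp of 10542 matches to its consensus there were 91 pairs and 811 single positions, a log2 ratio of 0.18 (95% counting interval -0.13 to 0.50). Its sign was not stable, since the mean over 22 chromosomes was -0.02 ± 1.01 (SD) and the ratio within classes of GC content and crowding was -0.06. At 100 to 200 bp on either side, where single positions were dense, 363 pairs and 4786 single positions gave a log2 ratio of -0.38 (-0.54 to -0.23), below 0 on 19 of 22 chromosomes. On the upstream side of the motif there were 159 pairs and 2572 single positions, with a log2 ratio of -0.68 (-0.91 to -0.45), below 0 on 20 of 22 chromosomes. On the downstream side 204 pairs and 2214 single positions gave -0.10 (-0.31 to 0.11), below 0 on 10 of 22. The counting intervals of the sides did not overlap, and the split by side was made after the flanks were seen. The means over 22 chromosomes, -0.62 ± 0.56 upstream and -0.09 ± 0.50 downstream (SD), overlapped in their spread. That overlap leaves out that both sides were counted on the same chromosomes, and the difference within each chromosome was not computed.

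**Figure D4:**
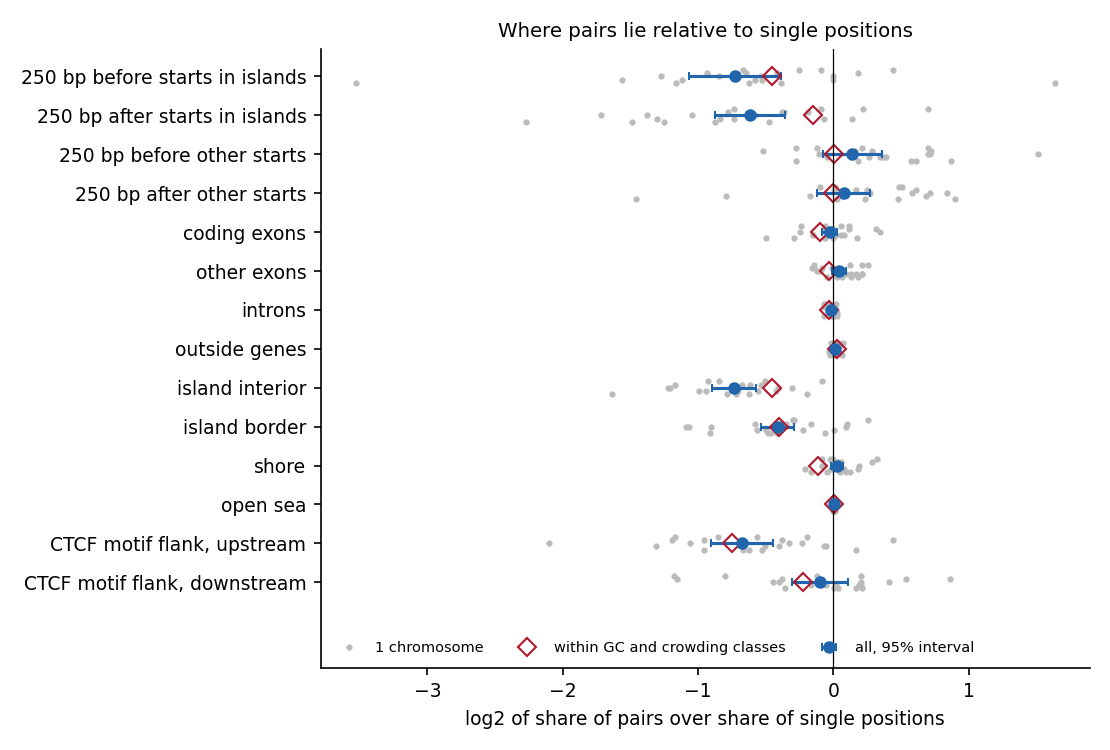
Log2 of the share of pairs over the share of single positions (x axis) in each kind of sequence. Blue points are all 22 chromosomes with 95% counting intervals, grey points are single chromosomes, and open diamonds compare within classes of GC content and crowding. Island interiors (-0.74), island borders (-0.41) and the upstream CTCF flank (-0.68) lie left of 0, and introns and exons lie near 0.

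Pairs lay in most protein-coding genes. Of 19111 protein-coding genes on chromosomes 1-22, 12869 (67.3%) held at least 1 pair, and the median over genes with a position was 6.31 pairs per 100 positions. The 10 genes with the most pairs were 686.4 to 2474 kb long, against a median of 27.9 kb for all genes. ASTN2, a neuronal membrane protein, held 166 pairs among 1894 positions (8.76 per 100), and CNTNAP2, a cell adhesion protein of neurons, held 160 among 2104 (7.60). DAB1, an adaptor of reelin signalling, held 160 and AGBL1, a carboxypeptidase, 158. PTPRN2, THSD4 and RBFOX1 held 155, 153 and 152, RORA, a nuclear receptor, 146, PTPRD, a receptor phosphatase, 145 and TENM2, a teneurin, 136. Per 100 positions these 10 ranged from 6.75 in RBFOX1 to 11.9 in THSD4. Summed over all protein-coding genes the value was 7.71, and RBFOX1, PTPRD (7.14) and CNTNAP2 lay below it. ASTN2 and PTPRD lie on chromosome 9, and AGBL1, THSD4 and RORA on chromosome 15, the chromosomes with the most positions per kb.

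The gene lists had medians of 4.47 to 7.14 pairs per 100 positions, against 6.31 for all genes. Summed over genes, all lists lay at 4.85 to 7.53, against 7.71 for all genes. The share of genes with a pair, 67.3% over all genes, was not adjusted for gene length, and the median length is given with each list. In the list of visual cycle and pigment epithelium genes, 10 of 12 (median length 20.1 kb) held a pair, 52 pairs in all, with a median of 5.80 per 100 positions. LRAT, which esterifies retinol, held 14 pairs among 123 positions, MITF, the transcription factor of pigment cells, 11 among 148, and MERTK, a receptor for phagocytosis of photoreceptor discs, 9 among 168. RPE65, the isomerase of the visual cycle, held 1 among 29, and RDH5 and OTX2 held none among 8 and 9. Of the melanin genes 6 of 7 (40.1 kb) held a pair, 18 in all with a median of 5.88, led by DCT with 7 among 59. TYRP1 held 2 among 15, and PMEL held none among 15.

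In the epithelial list 5 of 8 genes (59.7 kb) held a pair, 18 in all with a median of 4.59 per 100 positions, and CDH2 led with 7 among 127. Chromatin remodellers held 54 pairs in 7 of 10 genes (124.5 kb) with a median of 4.93, and SMARCA2, an ATPase of the SWI/SNF complex, led with 16 among 217. All 8 genes of the DNA methylation list on these chromosomes (106.3 kb) held a pair, 47 in all with a median of 4.47. TET3 led with 17 among 172, followed by DNMT3A, a de novo methyltransferase, with 15 among 208, and DNMT1, the maintenance methyltransferase, with 5 among 73. TET1 held 2 among 104. The 4 insulator and cohesin genes (57.5 kb) held 9 pairs with a median of 5.64, of which CTCF held 3. Housekeeping genes held 8 pairs in 3 of 7 genes (18.6 kb), 5 of them in ACTB. No gene or list was tested against the 6.31 of all genes, and most of these counts are small.

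In coding exons of the listed genes, 7 pairs lay in 7 genes. Beside those of TET1, CDH2 and TYRP1 they lay in DNMT1 (26 bp apart, exon 21), DNMT3A (30 bp, exon 2), CTCF (41 bp, exon 12) and MBD2 (31 bp, an exon of another transcript than the canonical one). MBD2 binds methylated CpG. The CTCF pair sat at the end of the coding sequence, which ends at 67637869 on chromosome 16, 2 bp before the right member at 67637871. In DNMT3A the 31 bases from member to member had a GC content of 80.6%, and in DNMT1 59.3%.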

How the data were processed

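MNase-seq of interphase ARPE-19 cells was labelled as 2 samples. What the authors deposited is 1 list of 1-bp intervals by chromosome, without scores. Per the submitters' processing notes, Bowtie2 and hg38 (GRCh38) were used. The caller, its settings, the fragment filter and whether batches were pooled are not given in the sources used here. The members of a pair stood on adjacent rows in 197778 of 197781 pairs.

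Repeated rows were removed, positions on chromosomes 1-22 were sorted, and pairs and single positions were found as described above. GC content was taken over 150 bp. Counting intervals are at 95% and cover counting error only. Ratios per chromosome had 0.5 added to each count. Islands scored 17 for a CpG and -1 for another base, with segments kept over 500 bp, at 55% GC or more and above a CpG ratio of 0.65. Exons came from GENCODE 44, with 1 start site per gene. CTCF matches were to its consensus on both strands. The distance trend was a Poisson fit of degree 14, a degree set after seeing the fit. Named genes were those of the lists with a pair in a coding exon or just downstream of the start, the 10 with most pairs, and the 10 whose pair lay nearest the modal start-site bin. The members and the lists were chosen with earlier results of these data known. Words that recur among the pairs are not reported here. The measures were tested on simulated data. Alternatives were other bounds, isolation, windows and chromosome sets, and comparison within GC and crowding classes. Python 3.11.15, numpy 2.4.6, pandas 2.3.3, numba 0.67.0 and statsmodels 0.14.6 were used.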

Additional observations from a re-analysis of the deposited data

Results flagged for a closer look

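Pairs were also present in sequences outside chromosomes 1-22, which the comparisons above do not use. Chromosome X held 4509 such pairs among 74465 positions, so 12.1% of its positions lay in pairs, below the lowest autosome. A denser map raises this share by construction, and positions per kb were not computed for chromosome X. There were 7.16 pairs per 100 single positions there. Unplaced and alternate sequences held 120 pairs among 1388 positions (17.3%), or 16.2 per 100 single positions. Both sets are given because they hold pairs that no comparison uses, and no control sample gives a background for them.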

How the results depend on the processing

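For 15 values, 89 alternatives were computed. Of these 82 stayed within the spread of the chromosomes (for the number of pairs, within 1.5-fold, and for the 10-bp amplitude, within its counting error) and 7 moved further. The sign changed in 2 of the 82, both for the log2 ratio within 50 bp of CTCF motifs, which was 0.18 over all pairs, -0.06 within GC classes and -0.06 within GC and crowding classes. With an isolation of 150 bp, 13.4% of positions lay in pairs and the 10-bp amplitude was 1.60%. With bounds of 20 to 50 bp, 13.1% lay in pairs, which follows from the narrower bounds. The most frequent distance from the near member to the next position was 178 bp without chromosomes 9 and 15, and 178 bp without 10-kb windows of over 30 positions. The GC difference was 2.30 points over 100 bp and 1.47 points within crowding classes. Comparison within crowding classes was chosen after seeing the data. Where not stated otherwise, the cause was not tested. No paired analysis was possible because the list names no sample. With 1 list of unknown depth, no spread between cultures can be given.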
